A study of Mus musculus with 9 samples.

Results

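The 38 ribosome biogenesis and nucleolar genes described here encode RNA polymerase I subunits, nucleolar scaffold proteins, the proteins of the guide RNA particles that modify ribosomal RNA, and assembly factors of both ribosomal subunits. They were listed by symbol for their known roles, by a rule that uses no measured value but was drawn up with earlier results of these data known, and all 38 matched 1 row each of a table of 27999 genes. All 38 also passed the filter on low counts, together with 9978 mouse genes in all. RNA was measured in 9 libraries. The cells were G1E, mouse erythroid progenitors kept as a line and without functional Gata1, the transcription factor that drives red cell maturation. All cells were grown with murine stem cell factor and erythropoietin and were spin-infected with virus made in 293T cells, so that the controls also carried a vector. The vector was empty in the HMD group, and it carried human wildtype GATA1 or a human GATA1 mutant in the other groups (3 libraries each, described as biological replicates). The sources used here do not give the mutation, the time after infection or the share of infected cells, and every library came from the same cell line.

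Ribosome assembly starts in the nucleolus, where RNA polymerase I transcribes the ribosomal DNA into a long precursor. Box C/D and box H/ACA particles methylate and pseudouridylate that precursor, and a large complex called the small subunit processome folds and cuts it while separate factors mature the large subunit. Output of this pathway is high in proliferating erythroid progenitors and is known to decline as red cells mature, and inherited defects in ribosome production cause anaemias.

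Human GATA1 RNA set the empty vector group apart as labelled: 598 to 706 CPM (counts scaled to a common total, here the library total) with the mutant, 715 to 921 CPM with the wildtype, and at most 2 counts in an empty vector library. Its level does not show which form of GATA1 a library carried. Library totals ran from 11364358 to 17289307 counts. All 7 erythroid progenitor markers had counts, with a summed level of 2403 to 2709 CPM with the empty vector, 2378 to 2690 CPM with the mutant and 3275 to 3846 CPM with the wildtype. The 6 fibroblast markers summed to at most 0.0878 CPM, with Col1a1, Col1a2, Dcn and Lum at 0 in all libraries. Macrophage markers summed to 2.31 to 4.48 CPM with C1qa and Mrc1 at 0, and lymphoid markers to at most 0.735 CPM. The part of these markers in the results was not tested. Mutant replicates 1 and 2 were much closer to each other than any other replicates of a group, with a chi-square of 2.22 per gene against 16.2 to 60.1, yet above sampling noise. They were kept as separate libraries, and counts of calls with them summed into 1 library are given beside the results.

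Some members' start sites are shown first, because the calls concern these genes and because the E-box CACGTG, the site of the MYC and MAX family and of USF, is a letter pattern often noted in genes of this pathway. RefSeq (GRCm38.p6) gave a promoter window, 250 bases before to 50 after the start, for 33 of the 38 members; Bop1, Fbl, Npm1, Rrp12 and Rrs1 had no entry. Polr1b (chr2:129100746-129101045, plus strand), Heatr1 (chr13:12395125-12395424, plus) and Utp15 (chr13:98262943-98263242, minus) are the members with an entry that were called in both comparisons with wildtype GATA1. Tsr1 (chr11:74897830-74898129, plus) and Utp20 (chr10:88826765-88827064, minus) are the called members whose window holds CACGTG, beginning at base 25 and base 38 counted from the start. Sequences are 5′ to 3′ on the gene's strand, and capitals mark CACGTG.
Polr1b: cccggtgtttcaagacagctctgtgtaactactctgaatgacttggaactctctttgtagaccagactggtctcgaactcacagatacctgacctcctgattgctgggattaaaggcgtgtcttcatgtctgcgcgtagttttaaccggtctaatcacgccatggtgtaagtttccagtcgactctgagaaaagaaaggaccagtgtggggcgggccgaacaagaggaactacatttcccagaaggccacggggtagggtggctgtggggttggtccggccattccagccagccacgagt
Heatr1: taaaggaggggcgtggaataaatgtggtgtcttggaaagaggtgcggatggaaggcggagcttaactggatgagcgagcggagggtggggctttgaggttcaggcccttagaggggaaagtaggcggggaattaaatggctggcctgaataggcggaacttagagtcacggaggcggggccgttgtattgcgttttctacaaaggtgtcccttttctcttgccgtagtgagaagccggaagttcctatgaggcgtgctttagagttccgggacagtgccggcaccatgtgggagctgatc
Utp15: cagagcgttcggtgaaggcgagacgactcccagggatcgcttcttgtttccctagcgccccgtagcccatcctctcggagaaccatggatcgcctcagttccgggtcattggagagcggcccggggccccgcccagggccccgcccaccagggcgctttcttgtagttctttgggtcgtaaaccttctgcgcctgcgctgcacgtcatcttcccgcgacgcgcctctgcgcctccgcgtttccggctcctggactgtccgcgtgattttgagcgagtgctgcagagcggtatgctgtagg
Tsr1: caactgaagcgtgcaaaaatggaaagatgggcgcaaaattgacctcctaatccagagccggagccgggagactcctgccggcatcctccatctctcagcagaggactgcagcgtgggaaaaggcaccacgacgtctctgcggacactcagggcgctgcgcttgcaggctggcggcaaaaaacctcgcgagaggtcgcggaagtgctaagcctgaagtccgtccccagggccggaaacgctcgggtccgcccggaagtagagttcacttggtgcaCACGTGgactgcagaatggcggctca
Utp20: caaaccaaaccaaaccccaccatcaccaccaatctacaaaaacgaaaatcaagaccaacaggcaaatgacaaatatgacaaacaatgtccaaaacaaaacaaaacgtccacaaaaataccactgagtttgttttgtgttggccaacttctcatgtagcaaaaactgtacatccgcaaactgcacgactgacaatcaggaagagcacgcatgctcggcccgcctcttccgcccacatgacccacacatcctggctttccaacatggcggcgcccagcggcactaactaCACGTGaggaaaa

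CACGTG, which reads the same on both strands, lay in the window of 8 of 33 members (24.2%), namely Ltv1, Nop2, Pes1, Pno1, Tsr1, Utp18, Utp20 and Wdr43. In 7635 tested genes with a window the share was 12.4%, and over all 27025 genes it was 8.09%. It began 3 to 38 bases after the start in 6 of those 8 members, and 20 and 60 bases before it in Utp18 and Nop2. A GATA pattern, searched on either strand as AGATAA or AGATAG and, with the other opening base, as TGATAA or TGATAG, lay in the window of 4 of 33 members (12.1%; Dkc1, Rrp1b, Rrp9 and Ubtf), against 21.8% of tested genes and 33.0% of all. The 33 members had 41 windows in all, and a gene was counted if any of its windows held the pattern. Ubtf has 6 windows and Rrp1b has 2, and not all of these hold a GATA pattern. None of the 5 printed windows holds a GATA pattern. Such matches describe letters in a short window and were not tested against the expression values. Of the 8 members with CACGTG, none was called lower with wildtype GATA1 and 2 were called higher in the mutant than in the wildtype. Of the 25 without it, 5 and 7 were. Over all tested genes, 11.9% were called lower and 13.2% higher in these comparisons, and sets this small do not allow their counts to be compared.

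The members formed a larger share of all counts with the empty vector than with wildtype GATA1. Their summed share was 1.63%, 1.75% and 1.65% in empty vector replicates 1, 2 and 3, 1.57%, 1.59% and 1.67% with the mutant, and 1.39%, 1.31% and 1.49% with the wildtype. No wildtype library reached the lowest library of either other group. As a level scaled with TMM factors, the sum was 16458 ± 599 CPM with the empty vector, 15648 ± 353 with the mutant and 14621 ± 214 with the wildtype (SD, n = 3). Ncl and Npm1 made up a large part of that sum. The median member, set against its own empty vector mean, stood at −0.19, −0.22 and −0.17 (log2) in wildtype replicates 1, 2 and 3, at 0.02, −0.01 and −0.02 in the mutant, and at −0.05, 0.05 and 0.01 in the empty vector, while the median of all tested genes stayed between −0.06 and 0.02 in the 9 libraries. In bulk RNA, fewer cells of a type and less RNA per cell cannot be told apart.

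**Figure D1:**
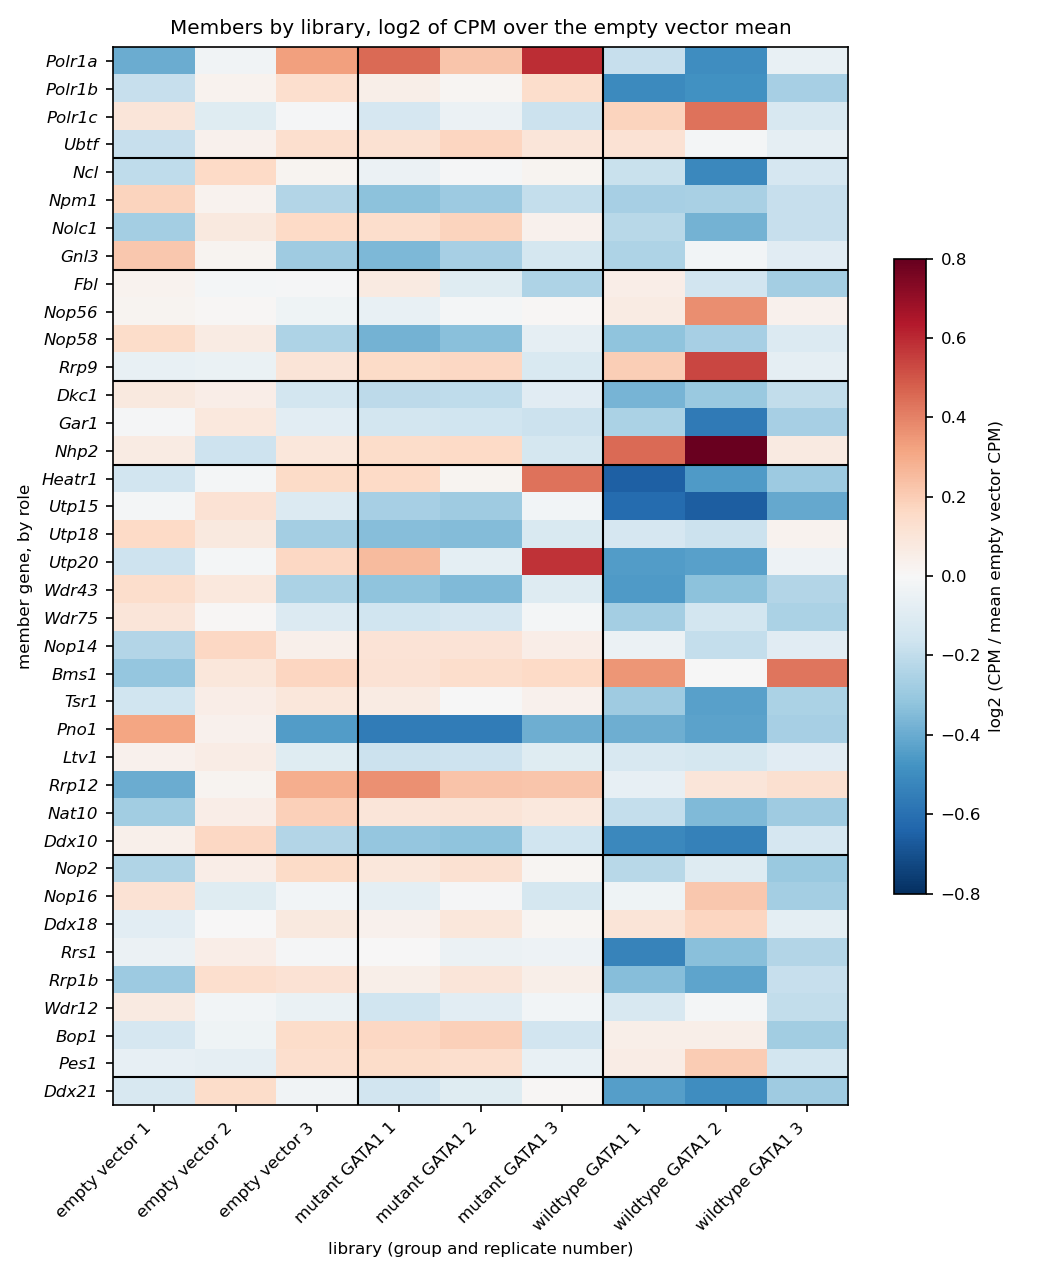
Members (rows, grouped by role) in the 9 libraries (columns); colour gives the log2 of each library's CPM over the gene's mean in the empty vector group. The wildtype columns are mostly blue, Nhp2 is the reddest row in wildtype replicates 1 and 2, and the empty vector columns differ among themselves.

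Per kilobase of the reference transcript (GENCODE M21, GRCm38), which allows genes to be compared, Npm1 was the most abundant member in the empty vector group at 1771 CPM per kb. Nop58 (572), Nhp2 (533), Ncl (419), Nop56 (273) and Dkc1 (224) followed, and Utp20 (6.74) and Polr1a (12.3) were the lowest. Among the RNA polymerase I subunits Polr1c (98.4) stood above Polr1b (48.4) and Polr1a, and above the guide RNA particle genes Rrp9 (96.0), Gar1 (84.0) and Fbl (66.0). Values for Ncl and Wdr12 are low estimates of this kind, since their reference transcripts (8.20 and 10.01 kb) far exceed their coding lengths (2.12 and 1.27 kb). The members lie on 15 chromosomes. Members Nop56, Nop58, Ncl, Gnl3, Wdr43, Tsr1 and Dkc1 hold 21 snoRNA genes in all, and 15 members share exonic bases with a gene on the opposite strand, among them Heatr1 (with Lgals8), Polr1a (with Gm26628), Tsr1 (with Srr), Rrp1b (with Hsf2bp) and Dkc1 (with Mpp1). Because the kit keeps no strand, reads of such partners cannot be told apart there.

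Wildtype GATA1 was set against the empty vector to ask what restoring the factor changed. Utp15 and Heatr1 of the small subunit processome, the RNA polymerase I subunit Polr1b, the helicase Ddx21, the large subunit factor Rrs1 and the box H/ACA protein Gar1 fell to between 0.68 and 0.782 times the empty vector level, and edgeR called no member higher. These 6 of 38 (15.8%) were called lower by edgeR's quasi-likelihood test (Benjamini-Hochberg adjusted p under 0.05 over all tested genes), and the other 32 did not pass. Of all tested genes, 11.9% were called lower and 11.4% higher, so the share of members called lower was near the background. Below 0 lay the log2 fold changes of 29 members (76.3%, against 54.2% of all tested genes), and the median was −0.23 against −0.04 over all tested genes. Groups did not overlap for 9 members lower and 1 higher, where 17.3% and 15.3% of all tested genes had such groups. At an unadjusted p under 0.05 there were 13 lower and 1 higher, beside 1879 lower and 1760 higher of the 9978 tested genes. DESeq2 called 6 lower and 1 higher (Nhp2), with 12.1% and 13.9% of all tested genes.

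The number of members called lower turned on single libraries. Utp15 alone was called when mutant replicate 1, wildtype replicate 1, wildtype replicate 2 or empty vector replicate 2 was left out, and also in a fit of only the 6 libraries compared. In that order, these fits called 8.9%, 6.47%, 8.4%, 6.98% and 8.61% of all tested genes lower. Without wildtype replicate 3 the number was 10 (16.3% of all tested genes). With mutant replicates 1 and 2 summed it was 4 (Polr1b, Heatr1, Utp15 and Ddx21), with 9.94% of all tested genes.

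The mutant was set against the empty vector to ask whether it moved these genes at all. None of the 38 members was called in either direction, with log2 fold changes from −0.50 (Pno1) to 0.43 (Polr1a), in a comparison where 0.21% of all tested genes were called higher and 0.0601% lower. DESeq2 also called no member (0.631% of all tested genes higher and 0.391% lower). Nor was any member called with mutant replicates 1 and 2 summed (0.0892% of all tested genes higher and 0.0198% lower). An unadjusted p under 0.05 was reached by 1 member higher (Polr1a) and 2 lower (Npm1 and Pno1). Of the 9978 tested genes, 499 higher and 785 lower reached it. The median log2 fold change of the members was −0.02, against 0.00 over all tested genes, with 18 members above 0 and 20 below. Groups did not overlap for 1 member, Gar1, which was lower with the mutant (6.84% of all tested genes had such groups in that direction and 8.19% in the other). Without empty vector replicate 3, Polr1a was called higher and Pno1 lower, and the calls over the whole table went from 21 higher and 6 lower to 227 higher and 610 lower.

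Mutant and wildtype GATA1 were compared directly to ask where the mutant differed. The RNA polymerase I subunits Polr1a and Polr1b, the chaperone Nolc1, the small subunit factors Heatr1, Utp15, Utp20, Tsr1 and Nat10, and the large subunit factors Rrs1 and Rrp1b were higher with the mutant, at 1.26 to 1.59 times the wildtype level. These were 10 of 38 members (26.3%, against 13.2% of all tested genes), and none was called lower (against 12.7%). The median log2 fold change was 0.12, against −0.01 over all tested genes, and 15 members had groups that did not overlap with the mutant higher and 1, Nop56, with the mutant lower (23.3% and 20.9% of all tested genes). Both this comparison and that with the empty vector use the wildtype libraries, so their calls are not independent. DESeq2 called 11 higher and none lower (13.5% and 15.2% of all tested genes). An unadjusted p under 0.05 was reached by 12 members higher and 1 lower (Nhp2), beside 2004 higher and 1894 lower of the 9978 tested genes.

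A fit of the 6 mutant and wildtype libraries with the replicate number as a block was added after seeing the data. There, 14 members were called higher, including all 10, with Ncl, Rrp12, Nop2 and Ddx21 added (36.8% of members). That fit called 23.6% of its 9846 tested genes higher and 24.5% lower, so calls rose throughout the table. Of the members it called 2 lower, Polr1c (log2 fold change −0.28, adjusted p = 0.0158) and Nhp2 (−0.38, adjusted p = 0.00247). Without the block, the count of 10 fell to 1 (Heatr1) without wildtype replicate 1 (7.49% of all tested genes higher). It fell to 2 (Polr1b and Heatr1) without mutant replicate 1, mutant replicate 3 or wildtype replicate 2 (6.86%, 10.1% and 8.59%). It was 4 (Polr1a, Polr1b, Heatr1 and Utp20) without mutant replicate 2 or empty vector replicate 2 or with mutant replicates 1 and 2 summed (7.83%, 10.9% and 7.72%).

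**Figure D2:**
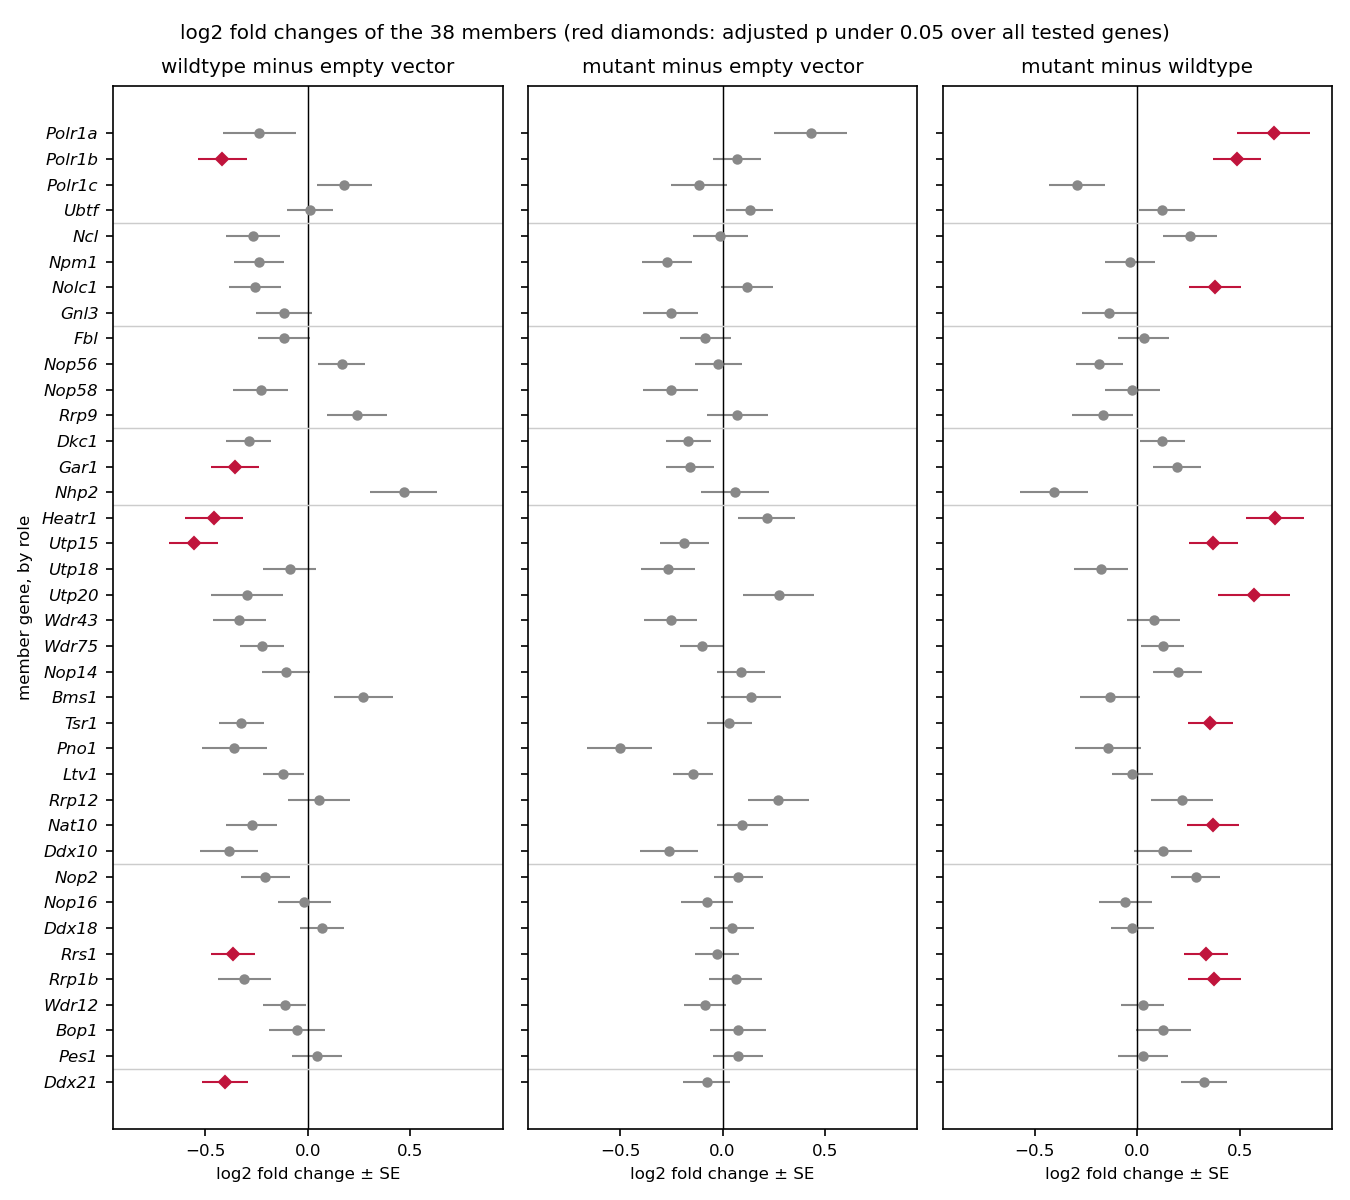
Log2 fold changes (horizontal axis, with SE bars) of the 38 members, by role from top to bottom, in the 3 comparisons; red diamonds mark members called at an adjusted p under 0.05. Called members number 6 to the left of 0 in the wildtype against empty vector panel, 0 in the mutant against empty vector panel and 10 to the right of 0 in the mutant against wildtype panel.

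Of the 4 genes of RNA polymerase I transcription, the catalytic subunits moved and the others did not pass the test. Polr1b, the second-largest subunit of the enzyme, read 171, 197 and 213 CPM in empty vector replicates 1, 2 and 3, 200.3, 196 and 213 CPM in the mutant group, and 136, 138 and 161 CPM in the wildtype group. All 3 wildtype libraries lay below all 6 others. Its log2 fold change was −0.42 ± 0.12 (SE) for wildtype against empty vector (adjusted p = 0.0224, edgeR) and 0.49 ± 0.12 for mutant against wildtype (adjusted p = 0.01), calls lost in 6 of 19 and 1 of 20 alternatives. Polr1a, the largest subunit, read 86.1, 111 and 142 CPM with the empty vector, 155, 132 and 171 CPM in the mutant group, and 99.7, 80.2 and 108 CPM in the wildtype group. Here the mutant libraries lay above the wildtype ones, but the empty vector libraries spanned a range that overlapped both. Polr1a was 0.67 ± 0.18 higher with the mutant than with the wildtype on the log2 scale (adjusted p = 0.0161, edgeR; lost in 5 of 20 alternatives), while the values against the empty vector were −0.24 ± 0.18 for the wildtype (adjusted p = 0.363) and 0.43 ± 0.18 for the mutant (adjusted p = 0.364).

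Polr1c, a subunit shared by RNA polymerases I and III, read 139, 121 and 129 CPM with the empty vector, 118, 125 and 115 CPM in the mutant group, and 146, 175 and 118 CPM in the wildtype group. Wildtype replicates 1 and 2 lay above the other groups and replicate 3 within them. No comparison of Polr1c passed the test in the fit of all 9 libraries by group; it was called lower with the mutant than with the wildtype under the block given above, without wildtype replicate 3 and with 1 surrogate variable. Ubtf, the factor that binds the ribosomal DNA promoter, read 225, 262 and 281 CPM with the empty vector, 279, 289 and 274 CPM in the mutant group, and 277, 253 and 243 CPM in the wildtype group. Wildtype and empty vector means differed by 0.01 ± 0.11 on the log2 scale (adjusted p = 0.956, edgeR), which is within the spread between replicates.

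The nucleolar scaffold genes held the most abundant transcripts. Ncl, which encodes nucleolin, read 2979, 3834 and 3487 CPM with the empty vector, 3322, 3415 and 3487 CPM in the mutant group, and 3029, 2402 and 3126 CPM in the wildtype group. Wildtype values lay below all mutant values, yet the log2 difference of mutant from wildtype, 0.26 ± 0.13, did not pass the test (adjusted p = 0.173, edgeR). Npm1, which encodes nucleophosmin, read 3268, 2952 and 2458 CPM with the empty vector, 2300.0, 2361 and 2529.6 CPM in the mutant group, and 2409, 2414 and 2545 CPM in the wildtype group. Both GATA1 groups overlapped only the lowest empty vector library, and the mutant and wildtype groups were mixed (log2 difference −0.04 ± 0.12, adjusted p = 0.855, edgeR). Npm1 has processed pseudogenes, so its counts are uncertain as the sources used here do not say how reads with several matches were counted.

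Nolc1, a chaperone of the guide RNA particles, read 499, 637 and 672 CPM with the empty vector, 664, 681 and 618 CPM in the mutant group, and 517, 464 and 531 CPM in the wildtype group. Only the mutant and wildtype groups stood apart, with a log2 fold change of 0.38 ± 0.13 (adjusted p = 0.0443, edgeR), a call lost in 9 of 20 alternatives. Gnl3, which encodes nucleostemin, had log2 fold changes of −0.12, −0.25 and −0.14 in the comparisons of wildtype with empty vector, mutant with empty vector and mutant with wildtype, none of them called.

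None of the 4 box C/D genes was called in any comparison in the fit of all 9 libraries by group. With the length and GC offsets given below, Fbl and Nop58 were called lower with the wildtype than with the empty vector. Nop58 was then also called higher in the mutant than in the wildtype. Fbl, which encodes the methyltransferase fibrillarin, read 80.5, 78.0 and 78.5 CPM with the empty vector, 82.9, 73.8 and 66.7 CPM in the mutant group, and 82.1, 71.0 and 65.5 CPM in the wildtype group. The mutant and wildtype groups spanned almost the same range (log2 difference 0.03 ± 0.12, adjusted p = 0.874, edgeR). Nop56, a scaffold of the particle, read 521, 515 and 501 CPM with the empty vector, 492, 507 and 516 CPM in the mutant group, and 536, 663 and 524 CPM in the wildtype group. Each wildtype library was above all others, and wildtype replicate 2 was much the highest; the log2 fold change of 0.17 ± 0.11 against the empty vector did not pass the test (adjusted p = 0.32, edgeR).

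Nop58, the partner of Nop56, read 1086, 1025 and 826 CPM with the empty vector, 755, 778 and 931 CPM in the mutant group, and 782, 816 and 907 CPM in the wildtype group. Groups overlapped throughout, with log2 fold changes of −0.23 ± 0.13 for the wildtype (adjusted p = 0.236) and −0.25 ± 0.13 for the mutant (adjusted p = 0.43, edgeR) against the empty vector. Rrp9, a protein of the U3 particle, had log2 fold changes of 0.24, 0.07 and −0.17 in the same order of comparisons as Gnl3.

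The box H/ACA genes, whose particle isomerizes uridine to pseudouridine, did not move together. Gar1 read 106, 113 and 101 CPM with the empty vector, 96.5, 95.6 and 94.6 CPM in the mutant group, and 89.6, 72.0 and 88.8 CPM in the wildtype group, so that no group overlapped another. Its log2 fold change with the wildtype was −0.35 ± 0.12 (adjusted p = 0.0437, edgeR), a call that was lost in 12 of 19 alternatives. Dkc1, the pseudouridine synthase dyskerin, read 664, 652 and 568 CPM with the empty vector, 542, 547 and 591 CPM in the mutant group, and 485, 511 and 549 CPM in the wildtype group. Wildtype libraries were all below the empty vector ones, but the log2 fold change of −0.29 ± 0.11 missed the threshold (adjusted p = 0.0775, edgeR). Nhp2, a core protein of the same particle, stood at 580.5, 496 and 591 CPM with the empty vector, 615, 621 and 504 CPM in the mutant group, and 761, 959.5 and 584 CPM in the wildtype group. It had the largest positive log2 fold change of the members against the empty vector, 0.47 ± 0.17, with overlapping groups and an adjusted p of 0.0589 (edgeR).

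The small subunit processome and 40S genes were the largest role group, with 14 members, of which 2 were called lower with wildtype GATA1 and 5 higher in the mutant than in the wildtype, where 11.9% and 13.2% of all tested genes were; 2 of 14 is near that background. Of these 14, 12 had a negative log2 fold change for wildtype against empty vector (median −0.28). Heatr1 (chr13:12395027-12440289), which encodes a processome protein also needed for RNA polymerase I transcription, read 223, 245 and 275 CPM with the empty vector, 277, 251 and 334 CPM in the mutant group, and 158, 181 and 203 CPM in the wildtype group. Wildtype libraries were the lowest 3 of the 9. Heatr1 fell by 0.46 ± 0.14 on the log2 scale against the empty vector (adjusted p = 0.0317, edgeR) and was 0.67 ± 0.14 higher with the mutant than with the wildtype (adjusted p = 0.00405). The former call was lost in 7 of 19 alternatives, and the latter held in all 20, with adjusted p of at most 0.0315.

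Utp15 (chr13:98246845-98263041), of the same transcription-linked subcomplex as Heatr1, read 234, 256 and 219.5 CPM with the empty vector, 196, 194 and 233 CPM in the mutant group, and 155, 149.5 and 178 CPM in the wildtype group. Wildtype libraries were again the lowest, and 2 of 3 mutant libraries lay between them and the empty vector. Its log2 fold change of −0.56 ± 0.12 against the empty vector (adjusted p = 0.00476, edgeR) was the most negative of the members and stayed called in all 19 alternatives (adjusted p at most 0.037). Mutant exceeded wildtype by 0.37 ± 0.12 (adjusted p = 0.0386), a call lost in 8 of 20 alternatives.

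Utp20 (chr10:88746607-88826804), a long scaffold protein of the processome, read 53.0, 58.7 and 66.7 CPM with the empty vector, 70.8, 56.4 and 88.7 CPM in the mutant group, and 43.6, 44.1 and 57.7 CPM in the wildtype group. It was called for mutant against wildtype (log2 fold change 0.57 ± 0.17, adjusted p = 0.0303, edgeR) although mutant replicate 2 lay below wildtype replicate 3. Tsr1, a GTPase-like factor of 40S maturation, read 104, 120.4 and 124 CPM with the empty vector, 122, 116 and 119 CPM in the mutant group, and 95.2, 86.0 and 97.3 CPM in the wildtype group. Its wildtype libraries were the lowest of the 9, and it was called for mutant against wildtype (0.36 ± 0.11, adjusted p = 0.0318, edgeR) but not against the empty vector (−0.32 ± 0.11, adjusted p = 0.0509). Nat10, which acetylates 18S ribosomal RNA, read 154, 194 and 214 CPM with the empty vector, 201, 202 and 199 CPM in the mutant group, and 165, 147 and 154 CPM in the wildtype group. Empty vector replicate 1 fell among the wildtype values, and the call was for mutant against wildtype alone (0.37 ± 0.12, adjusted p = 0.0454, edgeR), lost in 11 of 20 alternatives. The same calls of Utp20 and Tsr1 were lost in 5 and 8 of 20.

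The other 9 genes of this role group were Utp18, Wdr43, Wdr75, Nop14, Bms1, Pno1, Ltv1, Rrp12 and Ddx10. They were not called in any comparison in the fit of all 9 libraries by group, though Wdr43, Bms1, Pno1, Rrp12 and Ddx10 were in some alternatives. Ddx10, a DEAD-box helicase, had a log2 fold change of −0.39 ± 0.14 with the wildtype (adjusted p = 0.0674, edgeR) and Wdr43, of the transcription-linked subcomplex, −0.33 ± 0.13 (adjusted p = 0.0811). Bms1, the GTPase of the processome, was on the other side of 0 at 0.27 ± 0.15 (adjusted p = 0.199). Pno1, a late 40S factor, showed how far the empty vector libraries differed, with 235, 194 and 139 CPM in replicates 1, 2 and 3, against 129, 129 and 144 CPM with the mutant. Its log2 fold change with the mutant was −0.50 ± 0.16 (adjusted p = 0.308, edgeR), the most negative of the members in that comparison.

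In the large subunit group, 1 of 8 members was called lower with the wildtype and 2 higher in the mutant than in the wildtype, against 11.9% and 13.2% of all tested genes. Rrs1 (chr1:9545408-9547455), which helps to bring the 5S particle into the pre-60S subunit, read 244, 261 and 250.2 CPM with the empty vector, 252, 244 and 245 CPM in the mutant group, and 174, 199.8 and 214 CPM in the wildtype group. Empty vector and mutant values overlapped, and all wildtype values were lower. Its log2 fold change was −0.36 ± 0.11 with the wildtype (adjusted p = 0.0274, edgeR) and 0.33 ± 0.11 for mutant against wildtype (adjusted p = 0.0369), calls lost in 8 of 19 and 9 of 20 alternatives. Rrp1b, a nucleolar protein linked to 60S processing, read 91.3, 122 and 121 CPM with the empty vector, 115, 119 and 115 CPM in the mutant group, and 88.3, 83.3 and 98.4 CPM in the wildtype group. Empty vector replicate 1 lay within the wildtype range, and Rrp1b was called for mutant against wildtype alone (0.38 ± 0.13, adjusted p = 0.049, edgeR), a call lost in 11 of 20 alternatives, where the log2 fold change was as low as 0.11.

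Bop1, Pes1 and Wdr12, which form 1 complex in large subunit maturation, showed small values: log2 fold changes of −0.05, 0.05 and −0.11 with the wildtype and 0.07, 0.08 and −0.09 with the mutant against the empty vector. Ddx18 (0.07), Nop16 (−0.02) and Nop2 (−0.21), a ribosomal RNA methyltransferase, were likewise not called with the wildtype in the main fit. Ddx21, a helicase that acts in both RNA polymerase I transcription and processing, read 282, 342 and 302 CPM with the empty vector, 277, 289 and 311 CPM in the mutant group, and 227, 219 and 254 CPM in the wildtype group. Its wildtype libraries were the lowest of the 9. The call was for wildtype against empty vector (−0.40 ± 0.11, adjusted p = 0.0222, edgeR; lost in 5 of 19 alternatives), and mutant against wildtype missed the threshold (0.33 ± 0.11, adjusted p = 0.0519).

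**Figure D3:**
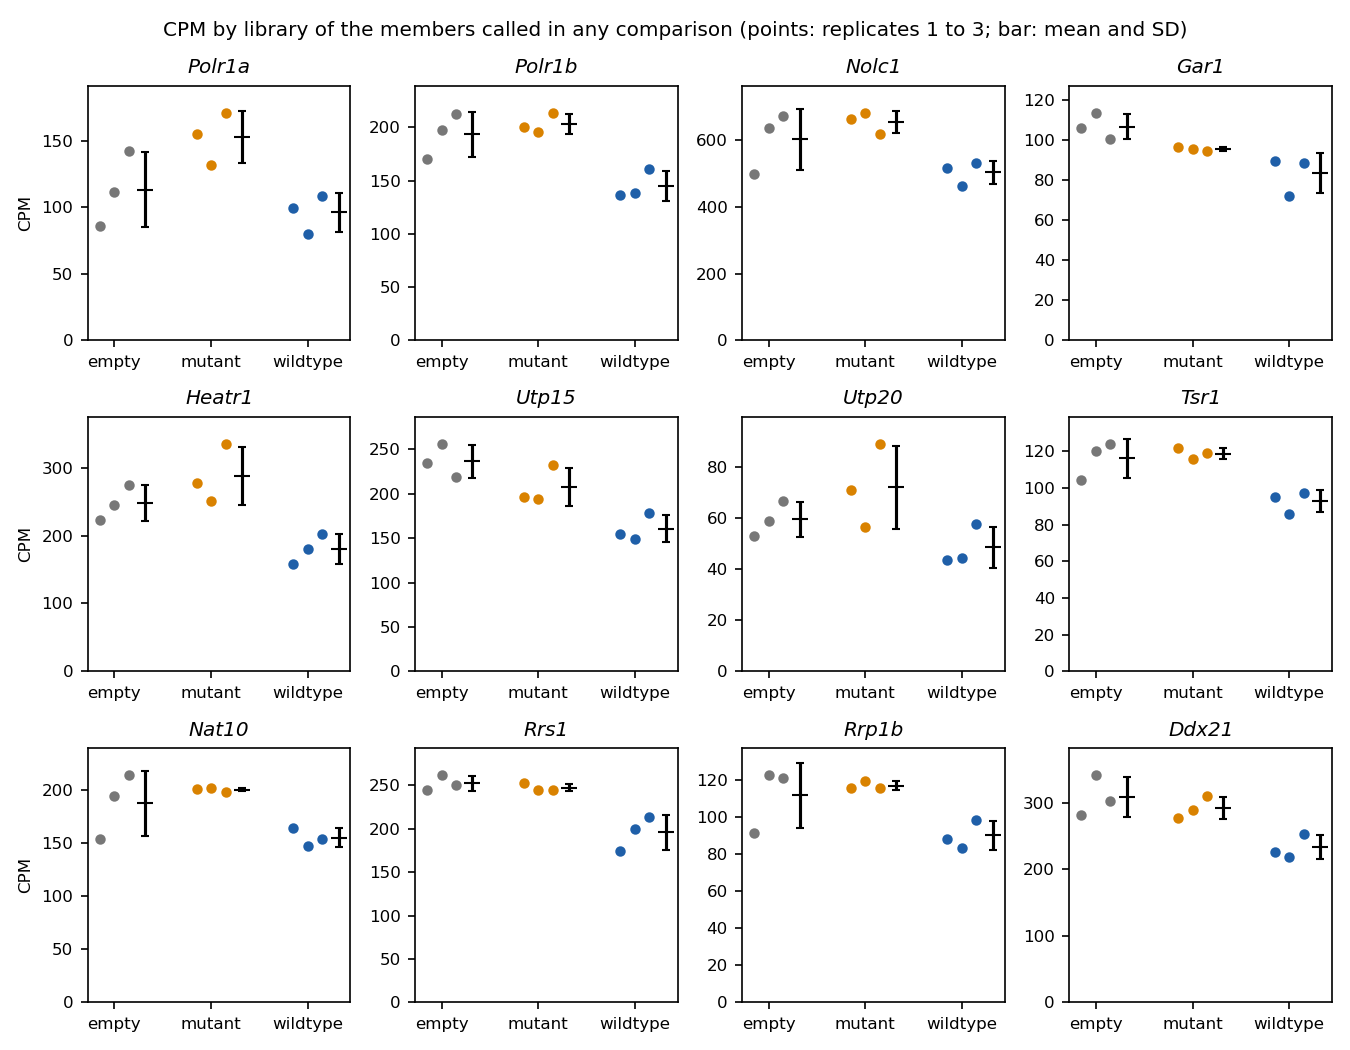
CPM (vertical axis, from 0) of the 12 members called in any comparison, by group; points are replicates 1 to 3 and the bar is the mean with SD. Wildtype points are the lowest for Polr1b, Heatr1, Utp15, Tsr1, Rrs1, Gar1 and Ddx21, while empty vector points reach down among the wildtype points for Polr1a, Nolc1, Utp20, Nat10 and Rrp1b.

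Fold changes of the members varied with transcript length. Across the 38 members, Pearson's r between log2 length and log2 fold change was 0.69 for mutant against wildtype, 0.506 for mutant against empty vector and −0.37 for wildtype against empty vector. Over 9649 tested genes with a length (96.7%) the values were 0.214, 0.0373 and −0.181. With log2 coding length in place of transcript length, r over the members was 0.685, 0.623 and −0.268. For GC content of the transcript, r over the members was 0.0354, 0.521 and 0.388, and over those tested genes 0.0989, 0.469 and 0.111. Genes are not independent replicates and the points share libraries, so these are descriptions. For mutant against wildtype, the 19 longer members (2.92 to 10.01 kb) had a median log2 fold change of 0.33 with 9 called higher, and the 19 shorter members (1.04 to 2.80 kb) had a median of −0.02 with 1 called higher, Rrs1.

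Relations with length were also present between libraries of 1 group, in either direction. For empty vector replicate 2 over replicate 1, r between log2 length and the log2 ratio was 0.606 across the members, and for replicate 3 over replicate 1 it was 0.514. Wildtype replicate 3 over replicate 2 gave 0.546 and mutant replicate 3 over replicate 2 gave 0.503. Replicate 3 over replicate 1 gave 0.463 with the wildtype and 0.411 with the mutant, and empty vector replicate 3 over replicate 2 gave 0.247. Replicate 2 over replicate 1 gave −0.356 with the wildtype and −0.348 with the mutant. For GC content, r in the same pairs ran from −0.788 (mutant replicate 3 over 1) to 0.665 (empty vector replicate 3 over 2). In the empty vector group, 10 members (Npm1, Gnl3, Nop56, Nop58, Dkc1, Utp18, Wdr43, Wdr75, Pno1 and Wdr12; median 2.28 kb) had their highest value in replicate 1 and their lowest in replicate 3. Another 14 (Polr1a, Polr1b, Ubtf, Nolc1, Rrp9, Heatr1, Utp20, Bms1, Tsr1, Rrp12, Nat10, Nop2, Ddx18 and Bop1; median 3.94 kb) had the reverse.

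With gene-wise offsets for length and GC content in the fit, 11 members were called higher for mutant against wildtype, with 16.2% of all tested genes higher and 17.6% lower. Of the 10 called without offsets, 6 were among them (Polr1b, Nolc1, Heatr1, Utp15, Tsr1 and Rrs1); Polr1a, Utp20, Nat10 and Rrp1b were lost, Npm1, Nop58, Dkc1, Ddx10 and Ddx21 were added, and Bms1 was called lower. For wildtype against empty vector the offsets gave 12 lower and 2 higher (Nhp2 and Bms1), with 17% of all tested genes lower and 18.9% higher. Of the 12, 5 were shared with the fit without offsets, where Heatr1 had also been called. Npm1, Fbl, Nop58, Wdr43, Pno1, Ddx10 and Nop2 were added. The part of length in the uncorrected values was not tested otherwise.

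**Figure D4:**
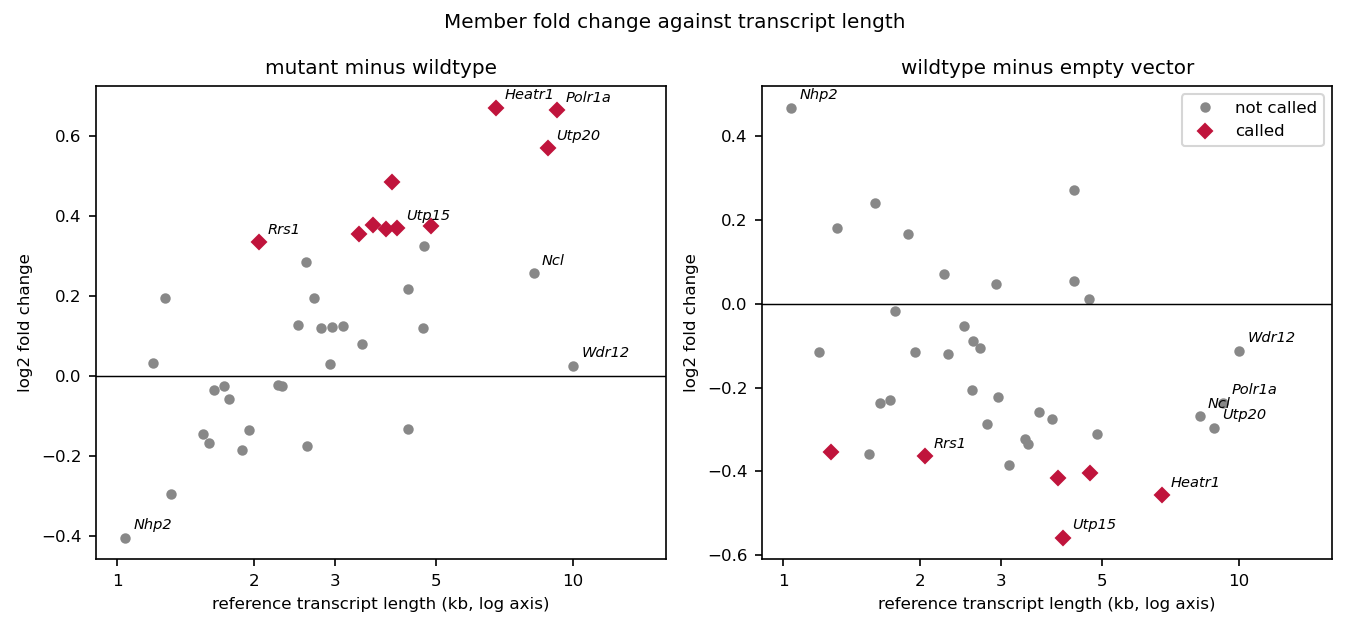
Log2 fold change of each member (vertical axis) against the length of its reference transcript in kb (log axis), for mutant minus wildtype and wildtype minus empty vector; red diamonds are called members. In the mutant minus wildtype panel 9 of the 10 called members are among the 19 longer ones, and Rrs1 is the exception.

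Of the 140 other genes listed for ribosome biogenesis, 138 were in the table and all 138 were tested. With wildtype GATA1 against the empty vector, 3 were called higher and 7 lower (2.17% and 5.07%, below the 11.4% and 11.9% of all tested genes), and the median log2 fold change was −0.07. Those that rose were Znhit3 (0.91 ± 0.22) and Pak1ip1 (0.51 ± 0.12), factors of box C/D particle and 60S assembly, and the kinase Riok3 (0.51 ± 0.12), which acts on late 40S particles. Among those that fell, the 5 largest log2 changes were in Utp6 (−0.51 ± 0.12), Tcof1 (−0.49 ± 0.13), Gnl3l (−0.45 ± 0.14), Gtpbp4 (−0.45 ± 0.12) and Znhit6 (−0.44 ± 0.11). Tcof1 encodes treacle, which works with Ubtf and RNA polymerase I, and Utp6 is a processome protein. The count higher was 10 without wildtype replicate 3 and 5 without empty vector replicate 1 (7.25% and 3.62%, against 16% and 10.9% of all tested genes). The count lower was 0 on leaving out wildtype replicate 1 or empty vector replicate 2 (6.47% and 6.98% of all tested genes). It was 3 when wildtype replicate 2 was dropped, 4 when mutant replicate 1 was, and 11 when wildtype replicate 3 was. Those were 2.17%, 2.9% and 7.97%, against 8.4%, 8.9% and 16.3% of all tested genes. Summing mutant replicates 1 and 2 gave 3 higher and 6 lower (2.17% and 4.35%, against 9.89% and 9.94% of all tested genes). With the mutant against the empty vector none was called by edgeR, also with these libraries summed, and DESeq2 called 1 lower (0.725%, against 0.391% of all tested genes). An unadjusted p under 0.05 was reached by 1 higher and 10 lower of the 138, beside 499 higher and 785 lower of the 9978 tested genes. Without empty vector replicate 3, 3 were higher and 9 lower (2.17% and 6.52%, against 2.25% and 6.05% of all tested genes).

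For mutant against wildtype, 12 of the 138 were called higher (8.70%) and 6 lower (4.35%), below the 13.2% and 12.7% of all tested genes. Among the called genes, the largest positive log2 fold changes were in Baz2a (0.90 ± 0.18), a subunit of a complex that silences ribosomal DNA, Tcof1 (0.65 ± 0.13), Dhx37 (0.62 ± 0.17), Urb1 (0.60 ± 0.18) and Nol6 (0.60 ± 0.17). Baz2a read 26.3, 33.8 and 41.8 CPM with the empty vector, 56.5, 47.0 and 52.5 CPM in the mutant group, and 25.0, 24.8 and 33.9 CPM in the wildtype group, so the mutant libraries were above all others. The most negative values among the called genes were in Znhit3 (−1.14 ± 0.22), Pak1ip1 (−0.63 ± 0.12), Riok3 (−0.61 ± 0.12), Nsa2 (−0.51 ± 0.13) and Mphosph6 (−0.51 ± 0.14). Riok3 read 123, 120.4 and 103 CPM with the empty vector, 98.6, 105 and 119 CPM in the mutant group, and 177, 147 and 168 CPM in the wildtype group, where it was higher in every library. With the replicate block in the 6 mutant and wildtype libraries, 28 of these genes were called higher and 25 lower (20.3% and 18.1%, against 23.6% and 24.5% of all genes in that fit). With mutant replicates 1 and 2 summed, 3 were called higher and 3 lower (7.72% and 7.65% of all tested genes). Without mutant replicate 1 or wildtype replicate 1 the count higher was 2 (6.86% and 7.49% of all tested genes). Without wildtype replicate 2 it was 3, without mutant replicate 2 it was 5 and without mutant replicate 3 it was 6 (8.59%, 7.83% and 10.1%). The count lower was 3 when mutant replicate 2 was dropped, 10 when empty vector replicate 3 was and 13 when wildtype replicate 3 was (7.71%, 14.9% and 15.6%).

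**Figure D5:**
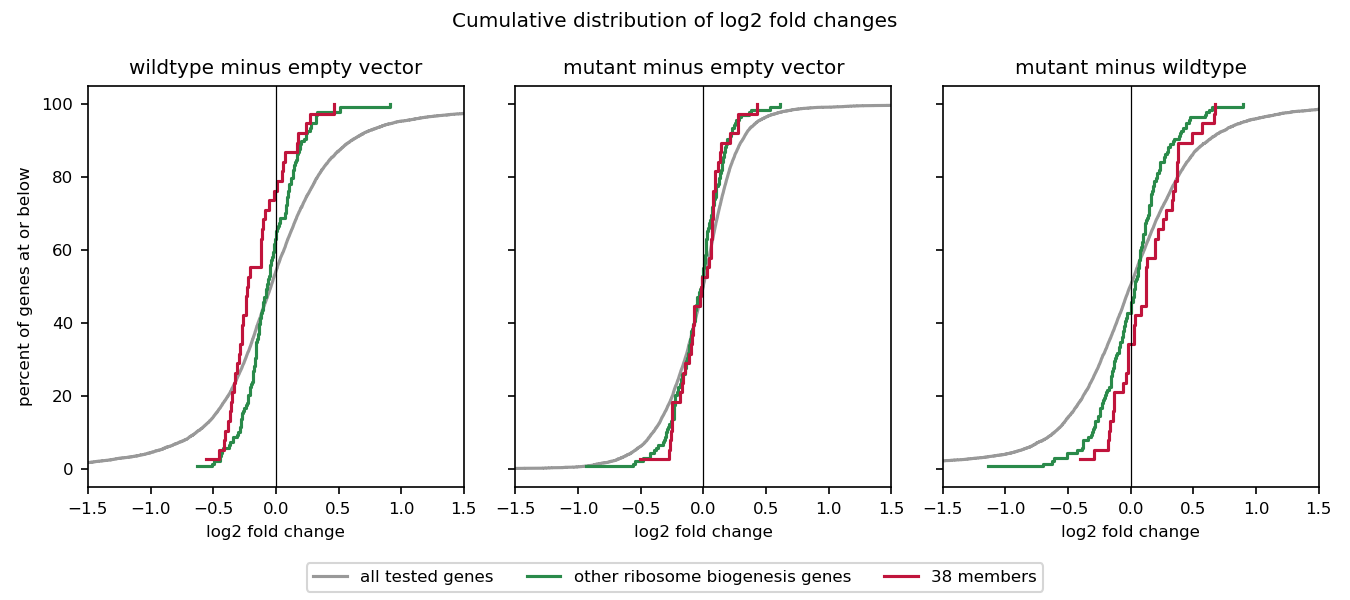
Cumulative share of genes (vertical axis, percent) at or below each log2 fold change (horizontal axis) for all tested genes, the 138 other ribosome biogenesis genes and the 38 members, in the 3 comparisons. The member curve lies to the left of the others in most of the wildtype minus empty vector panel, where its median is −0.23 against −0.07 for the other listed genes and −0.04 for all tested genes.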

How the data were processed

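The authors deposited 1 table of counts, whole numbers of reads for each gene with no normalization. Reads were aligned with STAR to GRCm38.p4 (mouse) and hg19 (human), per the submitters' processing notes; the sources used here do not give versions, the counter, the annotation or how reads with several matches were counted. Smart-seq2 with Nextera-based indexing was applied to total RNA, per the labels' protocols. Groups and replicate numbers came from the sample titles. The human GATA1 row stayed out of the fits.

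Counts were fitted with edgeR 4.0.16 in R 4.3.3 (TMM factors, filterByExpr by group, glmQLFit and glmQLFTest, 1 mean per group over all 9 libraries, 6 residual degrees of freedom). P-values were adjusted by Benjamini-Hochberg over the 9978 tested mouse genes of each comparison, and an adjusted p under 0.05 was a call. Standard errors were approximated as the size of the log2 fold change divided by the root of its F-statistic. CPM values use TMM-scaled library sizes unless stated, and 3 counts, the limit that a count of 0 allows, were 0.170 to 0.289 CPM. The tests were checked on simulated counts. No source says whether replicates came from separate cultures, so p-values measure only spread among the libraries at hand.

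The members and the list of other genes were chosen with earlier results of these data known, so counts over them are descriptions beside those of all tested genes. Libraries are named in the order of replicates 1, 2 and 3. Every member called in any comparison is given by library, as are Polr1a, Polr1b, Polr1c, Ubtf, Ncl, Npm1, Fbl, Nop56, Nop58 and Dkc1 whatever their result; of the other listed genes, the 5 called with the largest log2 fold change in each direction and comparison are named. Transcript length and GC content are those of the longest transcript tagged principal (APPRIS principal 1) in GENCODE M21, or of the longest transcript where none was. Baz2a and Riok3 were chosen for values by library after their results were seen.

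Replicate numbers were checked for pairing. Deviations from the group means correlated at 0.171, 0.286 and 0.533 between mutant and wildtype libraries of numbers 1, 2 and 3. Mutant replicate 1 correlated more with wildtype replicate 2 (0.24) than with wildtype replicate 1, and mutant replicate 2 correlated at 0.223 with wildtype replicate 1. Only number 3 stood apart, and deviations from a mean of 3 libraries depend on each other. The values therefore do not establish pairs of numbers 1 and 2. The main fit has no replicate block, and the 6-library block is an alternative only. Same-numbered empty vector libraries correlated at −0.435 to −0.202 with the other groups and stayed out of the 6-library block. Alternatives were RLE factors, other low-count filters, DESeq2 1.42.0, limma voom 3.58.1, only the 6 libraries compared, each library left out, mutant replicates 1 and 2 summed, length and GC offsets, 1 surrogate variable (sva 3.50.0), and the replicate block over 9 libraries or, added after seeing the data, over 6.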

Additional observations from a re-analysis of the deposited data

How the results depend on the processing

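No fold change reported for a called member changed sign under any alternative. For wildtype GATA1 against the empty vector, members called higher went from 0 to 1 with no low-count filter, with DESeq2 and with 1 surrogate variable, and to 2 with length and GC offsets, with 0 to 1 when 1 library was left out. Members called lower went from 6 to 1 in only the 6 libraries compared and to 12 with the offsets or the surrogate variable, with 1 to 10 when 1 library was left out. Calls over all tested genes moved too. In the order given, these fits called 8.78%, 13.9%, 15.4% and 18.9% of all tested genes higher and 8.61%, 17% and 17.6% lower. With 1 library left out the shares were 7.24% to 16% higher and 6.47% to 16.3% lower. For the other listed genes, the 3 higher became 5 with DESeq2 or the surrogate variable and 7 with the offsets (2 to 10 on leaving out a library). The 7 lower became 2 in only the 6 libraries, 14 with the offsets and 20 with the surrogate variable (0 to 11). As shares these were 3.62%, 3.62% and 5.07% higher and 1.45%, 10.1% and 14.5% lower, each below the share of all tested genes in the same fit. For the mutant against the empty vector, no filter gave 1 member lower (Pno1), 1 other gene higher and 3 lower (0.792% of all tested genes higher and 1.97% lower). DESeq2 gave 1 other gene lower (0.391%). Leaving out a library gave 0 to 1 members in each direction, and 0 to 3 other genes higher and 0 to 9 lower. Of all tested genes it gave 0.0495% to 2.25% higher and 0.0198% to 6.05% lower. For mutant against wildtype, the 10 members higher became 4 with the replicate block over all 9 libraries or with mutant replicates 1 and 2 summed (1 to 12 on leaving out a library). Of all tested genes, 10.6% and 7.72% were higher in these 2 fits, and 6.86% to 15.7% on leaving out a library. Members lower went from 0 to 1 with no filter or the offsets and to 2 with the surrogate variable or the replicate block in the 6 libraries (0 to 2 on leaving out a library). Those fits called 9.83%, 17.6%, 20.5% and 24.5% of all tested genes lower, and leaving out a library 7.71% to 15.6%. The 12 other genes higher became 3 with the summed libraries, 24 with the surrogate variable and 28 with the 6-library block (2 to 17), with 7.72%, 21% and 23.6% of all tested genes. The 6 lower became 10 with DESeq2, 11 in only the 6 libraries, 3 with the summed libraries, 17 with the surrogate variable and 25 with the 6-library block (3 to 13). All tested genes lower were 15.2%, 14.3%, 7.65%, 20.5% and 24.5% in these fits. The block over all 9 libraries gave 4 members lower with the wildtype (9.53% of all tested genes) and none for the mutant against the empty vector.

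The member median stayed between −0.25 and −0.11 for the wildtype and between −0.05 and 0.03 for the mutant against the empty vector, and between 0.10 and 0.17 for mutant against wildtype. What made the counts differ between alternatives was not tested. All members were well above the counting floor (the lowest library value was 43.6 CPM, in Utp20), and there are 3 libraries a group.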
